A study of Mus musculus with 16 samples.

Results

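Genes for the use of glucose and fructose in the liver were examined together with Mlxipl, the gene of the carbohydrate response factor ChREBP. The set was named by gene symbol as Mlxipl, Pklr, Khk, Gckr, Pfkl, Pfkfb1, Slc2a2, Gpi1 and Pdk1. Of these 9 genes, 7 were read by a probe set annotated to that gene alone, with 1 such probe set each, out of 19237 genes measured in this way. Pfkfb1 and Gpi1 had no such probe set in the annotation used and were not analysed here. The study set 8 livers of genotype LRH-1 hep-/-, a line known for loss of liver receptor homologue 1 (gene Nr5a2) in hepatocytes, against 8 livers of genotype LRH-1 hep +/+. All 16 mice were 17 to 19 weeks old, ate freely until they were killed at 7 am, and gave 1 Affymetrix array each. The labels name no treatment in either genotype, and neither the sex of the mice nor the driver of the deletion is given in the sources used here.

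Glucose enters hepatocytes through the carrier GLUT2, is phosphorylated there, and runs through glycolysis to pyruvate. Fructose enters further along, by way of ketohexokinase. ChREBP is a transcription factor that pairs with Mlx, is activated by sugar metabolites and binds carbohydrate response elements at glycolytic, fructolytic and lipogenic genes, of which the liver pyruvate kinase gene is the classic case. LRH-1 is a nuclear receptor known in the liver for its part in bile acid synthesis.

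Values are log2 intensities, and changes are hep-/- minus hep +/+ on that scale. Genes with a limma adjusted p under 0.05, by Benjamini-Hochberg over all 19237 genes, are termed called. Errors on changes are SE of that fit. Nr5a2 lay between 7.25 and 8.25 (median 7.77) in hep-/- livers, against 8.45 to 8.78 (median 8.70) in hep +/+ livers, so the genotypes did not overlap. The deleted exons are not given in the labels, and the probe set can also read transcripts of other liver cells. None of the 7 measured hepatocyte markers was called in limma (2 lower and 0 higher at an unadjusted p under 0.05, median change -0.09). Their summed intensity was 37732 to 41186 in hep-/- and 39580 to 42808 in hep +/+ livers. The hep-/- liver 8 stood apart, with a median absolute deviation of 0.20 log2 units from its genotype mean over 8468 genes, against 0.07 to 0.13 in the other hep-/- livers and 0.07 to 0.16 in hep +/+ livers. Adipocyte markers were high on 3 arrays (hep-/- 1 and hep +/+ 5 and 8) and skeletal muscle markers on 2 (hep-/- 5 and hep +/+ 4). In whole liver RNA, fewer cells of a type and less RNA per cell cannot be told apart.

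In LRH-1 hep-/- livers the transcripts of ChREBP, of liver pyruvate kinase and ketohexokinase, of the regulatory protein Gckr and of pyruvate dehydrogenase kinase 1 were lower. Called lower were thus 5 of the 7 genes, while 3.2% of all genes were called lower. None of the 7 was called higher in limma (0 also at an unadjusted p under 0.05), against 5.49% of all genes, and 8.7% of all genes were called in either direction. For Mlxipl, Pklr and Pdk1 the ranges of the genotypes were separate, as they were for 2.89% of all genes. The median change of the 7 genes was -0.60, against 0.002 over all genes. Pfkl and Slc2a2 did not pass the test, and 6 of the 7 genes had an unadjusted p under 0.05.

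**Figure D1:**
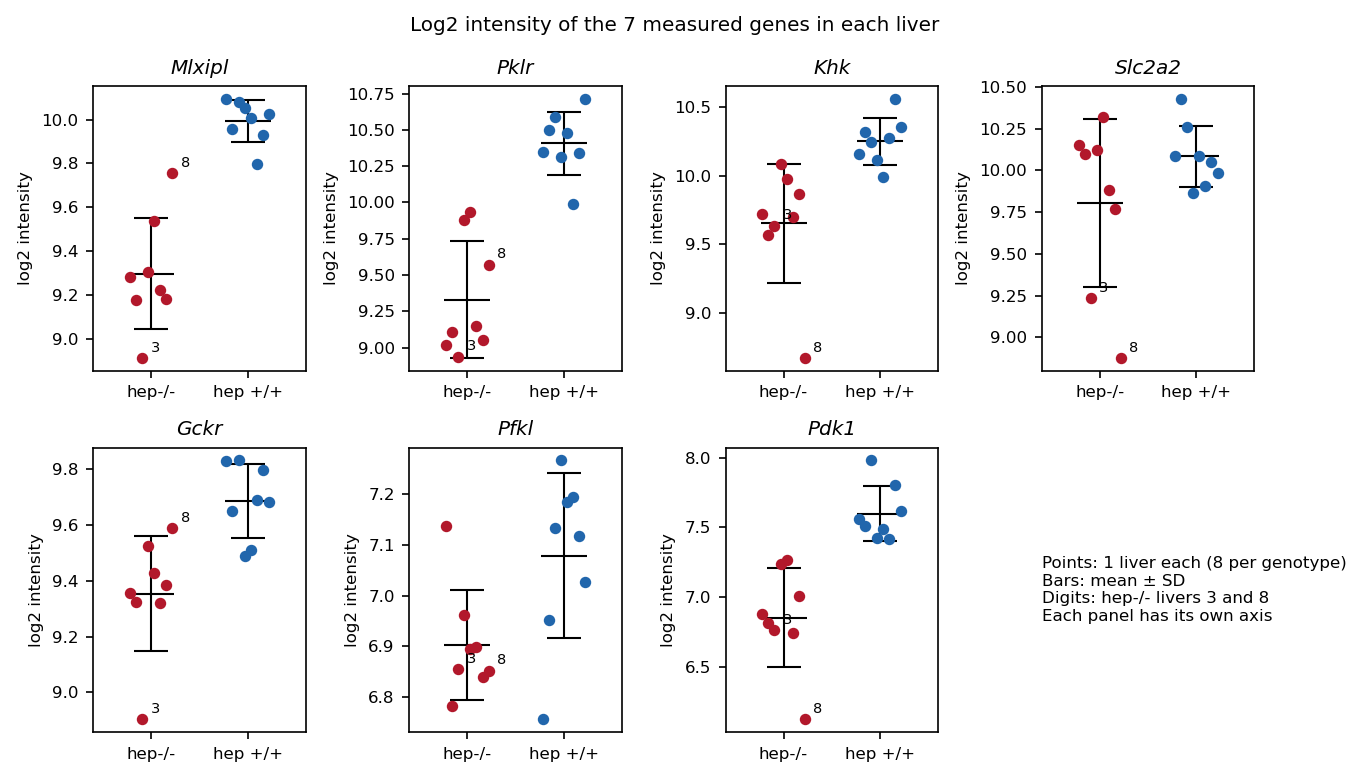
Log2 intensity of each measured gene (vertical axes, a separate scale per panel) in 8 LRH-1 hep-/- livers (left, red) and 8 LRH-1 hep +/+ livers (right, blue), with mean ± SD as bars and livers 3 and 8 of hep-/- marked by digits. The genotypes are separate for Mlxipl, Pklr and Pdk1 and overlap for the other 4 genes, and liver 8 lies at the top for Mlxipl and at the bottom for Khk, Slc2a2 and Pdk1.

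Mlxipl lies on mouse chromosome 5 (GRCm38.p6, 135089890 to 135139768). RefSeq gives it 2 starts 17001 bases apart, and the upstream start is that of the shorter ChREBP isoform, which is known to be induced by ChREBP itself. Of the promoter windows of these starts, each 250 bases before and 50 after the start, the upstream one holds the letters CACGTG, an E-box, 98 bases before the start. It is shown because this core is read by ChREBP with Mlx, as by other factors of their class, and the E-box is in capitals (chr5:135089752-135089837, GRCm38.p6, plus strand).

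Mlxipl upstream start: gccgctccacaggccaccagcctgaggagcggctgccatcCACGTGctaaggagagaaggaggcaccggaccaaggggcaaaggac

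The array gave 1 value for Mlxipl, and which of its starts the probes read is not known here. Mlxipl ranged from 8.91 to 9.76 (median 9.25) in hep-/- livers, against 9.80 to 10.09 (median 10.02) in hep +/+ livers. Every hep-/- liver was below every hep +/+ liver, with liver 8 of hep-/- at 9.76 and the lowest hep +/+ liver, number 6, at 9.80. The mean was 9.30 ± 0.25 in hep-/- and 9.99 ± 0.10 in hep +/+ livers (SD, n = 8 each). The change was -0.70 ± 0.09 (SE, 95% interval -0.89 to -0.51), or 61.7% of the hep +/+ level (limma adjusted p = 2.31e-05). The exact 2-sided permutation test over 12870 assignments of the arrays gave p = 0.000155, the smallest it can give.

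Pklr encodes the pyruvate kinase of liver and red cells, which makes pyruvate in the last step of glycolysis, and lies on chromosome 3 (89136122 to 89146815). RefSeq gives it 2 starts 481 bases apart. The window of the downstream start holds, 170 bases before it, a pair of E-box-like sites in the layout of a carbohydrate response element, searched as CACGNG followed by any 5 bases and CNCGTG. That layout was found in 15 of 32851 promoter windows of 27025 genes (0.0457%), and in 1 of the 10 windows of the 7 genes. Since Pklr is the classic case of this element, its match was foreseen, and these shares are a description and no test. The stretch is shown with the whole paired motif in capitals (chr3:89136393-89136529, GRCm38.p6, plus strand).

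Pklr downstream start: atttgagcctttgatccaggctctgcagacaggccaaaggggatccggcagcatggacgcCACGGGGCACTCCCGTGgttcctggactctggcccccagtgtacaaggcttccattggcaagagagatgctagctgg

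Pklr showed the largest decrease of the 7 genes. It ranged from 8.94 to 9.94 (median 9.13) in hep-/- livers, against 9.99 to 10.71 (median 10.42) in hep +/+ livers. In hep-/- the livers 4, 5 and 8 were at 9.88, 9.94 and 9.57, and the other 5 were at 9.15 or less. No hep-/- liver reached the lowest hep +/+ liver, number 6. The change was -1.08 ± 0.14 (SE, 95% interval -1.38 to -0.78), which left 47.4% of the hep +/+ level (limma adjusted p = 2.47e-05). The muscle and general counterpart Pkm, read by a probe set of its own, averaged 7.73 ± 0.20 in hep-/- and 7.73 ± 0.28 in hep +/+ livers (SD, n = 8 each), a change of 0.003 ± 0.111 (limma adjusted p = 0.997). The sign of that Pkm difference turned in 10 of 28 alternatives, and its interval was -0.23 to 0.23.

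Khk encodes ketohexokinase, which phosphorylates fructose, and lies on chromosome 5 (30921436 to 30931248). Its single promoter window holds the E-box letters CACGTG 71 bases before the start, shown in capitals (chr5:30921448-30921533, GRCm38.p6, plus strand). The stretch lies within the span given for the gene, since the start used for this window is downstream of the span's first base.

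Khk start: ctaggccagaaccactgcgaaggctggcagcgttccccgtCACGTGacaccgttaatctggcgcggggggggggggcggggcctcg

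Counted on both strands, the E-box was in 2 of the 10 windows of these genes, those of Mlxipl and Khk shown above, and in 7.15% of all windows. The LRH-1 core motifs CAAGGTCA and CAAGGCCA, in 1.56% and 2.4% of all windows, were in none of the 10, which says only that these letters are not in the windows searched. No window of the 7 genes held both the E-box and the paired motif. A match is a run of letters and no measure of binding.

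Khk ranged from 8.67 to 10.09 (median 9.71) in hep-/- livers, against 9.99 to 10.56 (median 10.26) in hep +/+ livers. In hep-/-, 7 of 8 livers were below the lowest hep +/+ liver, and liver 4 at 10.09 lay among them. Liver 8 of hep-/- was the lowest at 8.67, and the next was at 9.57. The change was -0.60 ± 0.14 (SE, 95% interval -0.90 to -0.30), or 66% of the hep +/+ level (limma adjusted p = 0.00978). Without liver 8 of hep-/- it was -0.46 ± 0.09 (limma adjusted p = 0.00152). Tkfc, which phosphorylates the glyceraldehyde that fructose yields and comes after Khk in the same route, also fell, with a change of -0.31 ± 0.08 (limma adjusted p = 0.0119). Tkfc ranged from 9.84 to 10.34 in hep-/- livers, against 10.26 to 10.65 in hep +/+ livers. Without the 3 arrays with adipocyte markers its change was -0.30 ± 0.09 and was not called (limma adjusted p = 0.0578).

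Slc2a2 encodes GLUT2, the glucose carrier of hepatocytes, on chromosome 3 (28697903 to 28728361). It ranged from 8.88 to 10.32 (median 9.99) in hep-/- livers, against 9.86 to 10.43 (median 10.07) in hep +/+ livers. The medians lay close together and the groups overlapped. Livers 8 (8.88) and 3 (9.23) of hep-/- lay below all others. The change of -0.28 ± 0.16 did not pass (limma adjusted p = 0.45, 95% interval -0.62 to 0.07). Without livers 3 and 8 of hep-/- it was -0.03 ± 0.10 (limma adjusted p = 0.946).

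Gckr encodes an inhibitory protein of hepatic glucose phosphorylation, and lies on chromosome 5 (31297266 to 31327302). It ranged from 8.90 to 9.59 (median 9.37) in hep-/- livers, against 9.49 to 9.83 (median 9.68) in hep +/+ livers. Below the lowest hep +/+ liver were 6 of the 8 hep-/- livers, and liver 3 was the lowest. The change was -0.33 ± 0.08 (SE, 95% interval -0.51 to -0.15), or 79.5% of the hep +/+ level (limma adjusted p = 0.015).

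Pfkl encodes the liver subunit of phosphofructokinase, the committed step of glycolysis, on chromosome 10 (77986947 to 78009807). It ranged from 6.78 to 7.14 (median 6.87) in hep-/- livers, against 6.76 to 7.27 (median 7.13) in hep +/+ livers. The ranges overlapped, with 0 hep-/- livers below the lowest hep +/+ liver. The change of -0.18 ± 0.07 did not pass (limma adjusted p = 0.18, 95% interval -0.33 to -0.02). It passed without liver 1 of hep +/+, the lowest of its group at 6.76 (-0.22 ± 0.06, limma adjusted p = 0.0328), after quantile normalization (adjusted p = 0.0208) and with array weights (adjusted p = 0.0336).

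Pdk1 encodes a pyruvate dehydrogenase kinase, which slows the entry of pyruvate into the citric acid cycle, and lies on chromosome 2 (71873215 to 71903858). It ranged from 6.13 to 7.27 (median 6.85) in hep-/- livers, against 7.41 to 7.98 (median 7.53) in hep +/+ livers. All hep-/- livers were below all hep +/+ livers, with liver 8 the lowest. The change was -0.74 ± 0.13 (SE, 95% interval -1.01 to -0.48), or 59.7% of the hep +/+ level (limma adjusted p = 0.000485). Its relative Pdk4, which acts on the same enzyme and is known to rise with fatty acid use, changed the other way, by 1.29 ± 0.16 (limma adjusted p = 1.68e-05). Pdk4 ranged from 9.02 to 10.28 in hep-/- livers, against 7.61 to 8.87 in hep +/+ livers, with no overlap. The other members of this kinase family, Pdk2 and Pdk3, were measured and were not called. Pdk3 was dim, with means of 3.78 in hep-/- and 3.62 in hep +/+ livers (limma unadjusted p = 0.043), so its missing call says little.

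**Figure D2:**
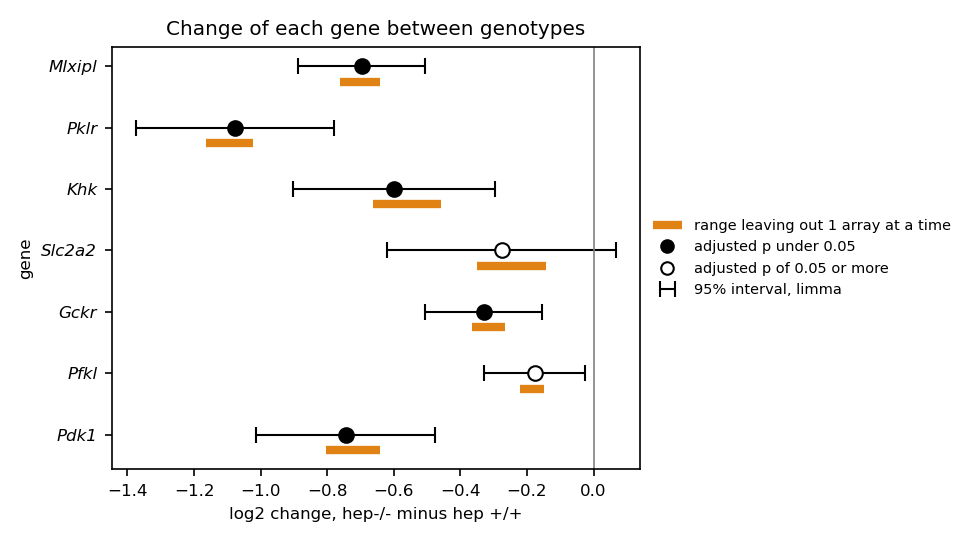
Change of each gene in log2 units (hep-/- minus hep +/+, horizontal axis) with the 95% interval of the limma fit over 8 and 8 livers; filled points have an adjusted p under 0.05, and orange bars span the changes found when 1 array at a time was left out. The intervals of the 5 called genes and of Pfkl, which was not called, lie below 0. The orange bar is widest for Slc2a2 (-0.35 to -0.14) and Khk (-0.66 to -0.46).

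The livers did not deviate alike in all 7 genes. Of the hep-/- livers, number 8 was highest in Mlxipl (0.46 above its genotype mean) and in Gckr (0.23 above), and lowest in Khk (-0.98), Slc2a2 (-0.93) and Pdk1 (-0.73). Number 3 was lowest in Mlxipl, Pklr and Gckr, and its Slc2a2 was -0.57 from the mean. Number 5 was highest in Pklr, Slc2a2 and Pdk1. The part of array quality in the values of liver 8 was not tested.

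**Figure D3:**
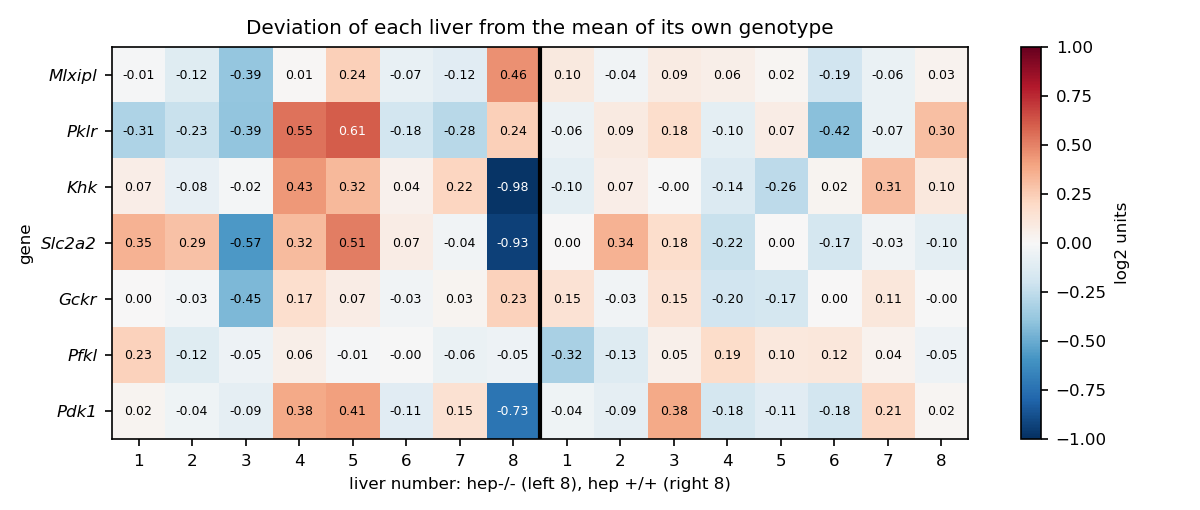
Deviation of each liver (columns, 8 hep-/- left of the black line, 8 hep +/+ right) from the mean of its own genotype in each gene (rows), in log2 units, with red above and blue below the mean. Liver 8 of hep-/- combines 0.46 in Mlxipl with -0.98 in Khk, and in hep +/+ livers the deviations lie between -0.42 and 0.38.

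Whether Mlxipl and the other genes moved together from liver to liver was examined within each genotype, over 8 livers at a time, as 12 relations. None passed after Benjamini-Hochberg adjustment over the 12. With Gckr in hep-/- livers Pearson's r was 0.83 (exact permutation p = 0.0177, adjusted p = 0.213) and Spearman's rho 0.86 (exact permutation p = 0.0107, adjusted p = 0.129), and without livers 3 and 8, the farthest in Mlxipl, r was 0.47 (exact permutation p = 0.321). In hep +/+ livers the same r was 0.06 (exact permutation p = 0.891). With Pklr in hep-/- livers r was 0.68 (exact permutation p = 0.0548, adjusted p = 0.319) and rho 0.76 (exact permutation p = 0.0368, adjusted p = 0.221). Without livers 3 and 8 r was 0.80 (exact permutation p = 0.025, adjusted p = 0.294). In hep +/+ livers the r with Pklr was 0.66 (exact permutation p = 0.0799, adjusted p = 0.319) and rho 0.38 (exact permutation p = 0.36). The r rested on livers 6 and 7, since without them r was -0.25. For Khk, Pfkl, Slc2a2 and Pdk1 r lay between -0.50 and 0.32 over both genotypes (exact permutation, adjusted p of 0.662 or more). In hep-/- livers without 3 and 8 it was 0.58 for Khk, 0.78 for Slc2a2 and 0.73 for Pdk1, where it had been -0.50, -0.14 and -0.32 over all 8 (exact permutation, adjusted p of 0.294 or more without them).

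**Figure D4:**
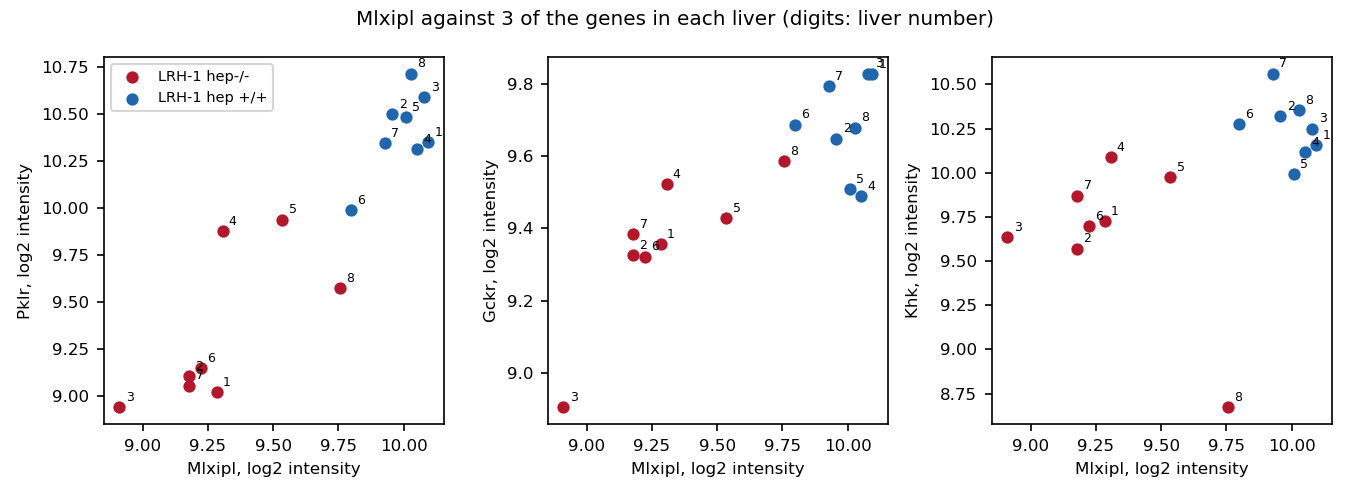
Log2 intensity of Mlxipl (horizontal axes) against Pklr, Gckr and Khk (vertical axes) in each liver, with LRH-1 hep-/- in red, LRH-1 hep +/+ in blue and digits giving the liver number. Pklr and Gckr are low where Mlxipl is low in liver 3 of hep-/-, and liver 8 has the highest Mlxipl and the lowest Khk of its genotype.

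By profile alone, the genes most like Mlxipl were ranked by the lower of their 2 within-genotype r, over 8 livers each, among 8461 genes with a mean log2 intensity of at least 6. They were Fdps (r of 0.85 in hep-/- and 0.83 in hep +/+ livers), Pdzk1ip1 (0.83 and 0.94), Arhgef16 (0.84 and 0.81), Akna (0.82 and 0.80) and Cyb5r3 (0.80 and 0.80). The points share their arrays and their scaling, and the ranking has no test. Of these 5 genes only Arhgef16 was called, and it was higher in hep-/- livers (0.55 ± 0.10, limma adjusted p = 0.00118), where Mlxipl was lower.

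Around the 7 genes most of the measured glucose pathway was not called, as holds for genes at large, of which 8.7% were called. Among 12 genes of hexose entry and phosphorylation none was called in limma (2 at an unadjusted p under 0.05, median change -0.03). The intracellular carrier Slc2a8 (-0.16 ± 0.06, limma adjusted p = 0.137) and the hexokinase Hk1 (0.15 ± 0.06, limma adjusted p = 0.177) had the smallest p-values, and Slc2a8 passed without liver 8 of hep-/- (-0.19 ± 0.05, limma adjusted p = 0.0266). Of 19 genes listed with the later steps of glycolysis 1 fell and 1 rose (median 0.01). They were the D-lactate dehydrogenase Ldhd (-0.26 ± 0.07, limma adjusted p = 0.0177) and the phosphoglycerate mutase Pgam1 (0.25 ± 0.07, limma adjusted p = 0.0225), which lost their calls, with changes of similar size, under some alternatives. Ldhd acts on D-lactate and is not itself a step of glycolysis, and no other gene of the list was called lower. Pgam1 was at 0.23 ± 0.07 without liver 5 of hep-/- (limma adjusted p = 0.0516), and Ldhd at -0.23 ± 0.08 without the 3 arrays with adipocyte markers (limma adjusted p = 0.117). Without liver 3 of hep-/-, or without liver 4 of hep +/+, 2 were called higher. Eno1 had no single-gene probe set and was not analysed here. Among 9 genes of the pentose phosphate pathway none was called in limma (3 at an unadjusted p under 0.05, median 0.01), with Xylb (0.20 ± 0.08, limma adjusted p = 0.113) and Rpia (-0.23 ± 0.09, limma adjusted p = 0.147) among the nearest. Without liver 4 of hep +/+ Xylb passed (0.25 ± 0.07, limma adjusted p = 0.0321), and without liver 3 of hep-/- 1 gene of the list rose.

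In the list of fructose, sorbitol and galactose use, 1 of 8 measured genes fell, Tkfc above, and 1 rose (median -0.01). Over all genes 3.2% were called lower and 5.49% higher. The gene of the list that rose was Pgm2, of the phosphoglucomutase family, by 0.66 ± 0.08 (limma adjusted p = 7.85e-06). Pgm2 ranged from 6.61 to 7.10 in hep-/- livers, against 5.93 to 6.27 in hep +/+ livers, with no overlap.

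In the list of pyruvate and lactate handling, which leaves out Pdk1 and Ldhd, 4 of 15 measured genes rose, against 5.49% of all genes. In limma 0 of the 15 fell (0 lower and 6 higher at an unadjusted p under 0.05, median 0.07). Without the 5 arrays with adipocyte or muscle markers 2 were called higher, while Slc16a7 (0.49 ± 0.15, limma adjusted p = 0.0952) and Bsg (0.25 ± 0.08, limma adjusted p = 0.141) kept changes of about the same size. Beside Pdk4, the monocarboxylate carriers Slc16a1 (0.65 ± 0.13, limma adjusted p = 0.0018) and Slc16a7 (0.51 ± 0.11, limma adjusted p = 0.00549), which move lactate, pyruvate and ketone bodies across membranes, were higher. Slc16a1 lay between 8.59 and 9.74 in hep-/- livers, against 7.96 to 8.53 in hep +/+ livers. These groups did not overlap, and liver 3 of hep-/- was the highest. Bsg, the chaperone of these carriers, rose by 0.22 ± 0.06 (limma adjusted p = 0.0238). The subunits of pyruvate dehydrogenase in the list, Pdhb, Dlat, Dld and Pdhx, were not called.

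Among the partners and reported targets of ChREBP outside the 7 genes, 4 of 27 measured fell, against 3.2% of all genes. In this list 0 rose in limma (8 lower and 3 higher at an unadjusted p under 0.05, median -0.05). Without the 3 arrays with adipocyte markers 0 were called lower in limma, with changes of -0.62 for Fasn, -0.87 for Angptl8, -0.30 for Tkfc and -0.44 for Elovl6 and adjusted p-values of 0.0578 to 0.176. Leaving out 1 liver gave 1 call for hep-/- liver 3 and for hep +/+ livers 3, 7 and 8, and 2 calls for hep-/- livers 2, 5, 6 and 7 and for hep +/+ livers 2 and 5. Beside Tkfc, the elongase Elovl6 changed by -0.51 ± 0.14 (limma adjusted p = 0.028), fatty acid synthase Fasn by -0.62 ± 0.19 (limma adjusted p = 0.0444) and the secreted lipoprotein lipase inhibitor Angptl8 by -0.74 ± 0.23 (limma adjusted p = 0.0467). These 3 overlapped between genotypes. Mlx, the partner of ChREBP, averaged 8.58 ± 0.17 in hep-/- and 8.63 ± 0.11 in hep +/+ livers (SD, n = 8 each), a change of -0.05 ± 0.07 whose sign turned in 1 of 28 alternatives (limma adjusted p = 0.874). Txnip, a thioredoxin-binding protein whose gene responds to glucose, lay between 7.81 and 9.82 in hep-/- livers, against 7.63 to 8.15 in hep +/+ livers. Its change of 0.53 ± 0.21 did not pass (limma adjusted p = 0.141). Liver 3 of hep-/- was the highest, and without it the change was 0.34 ± 0.14 (limma adjusted p = 0.161).

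**Figure D5:**
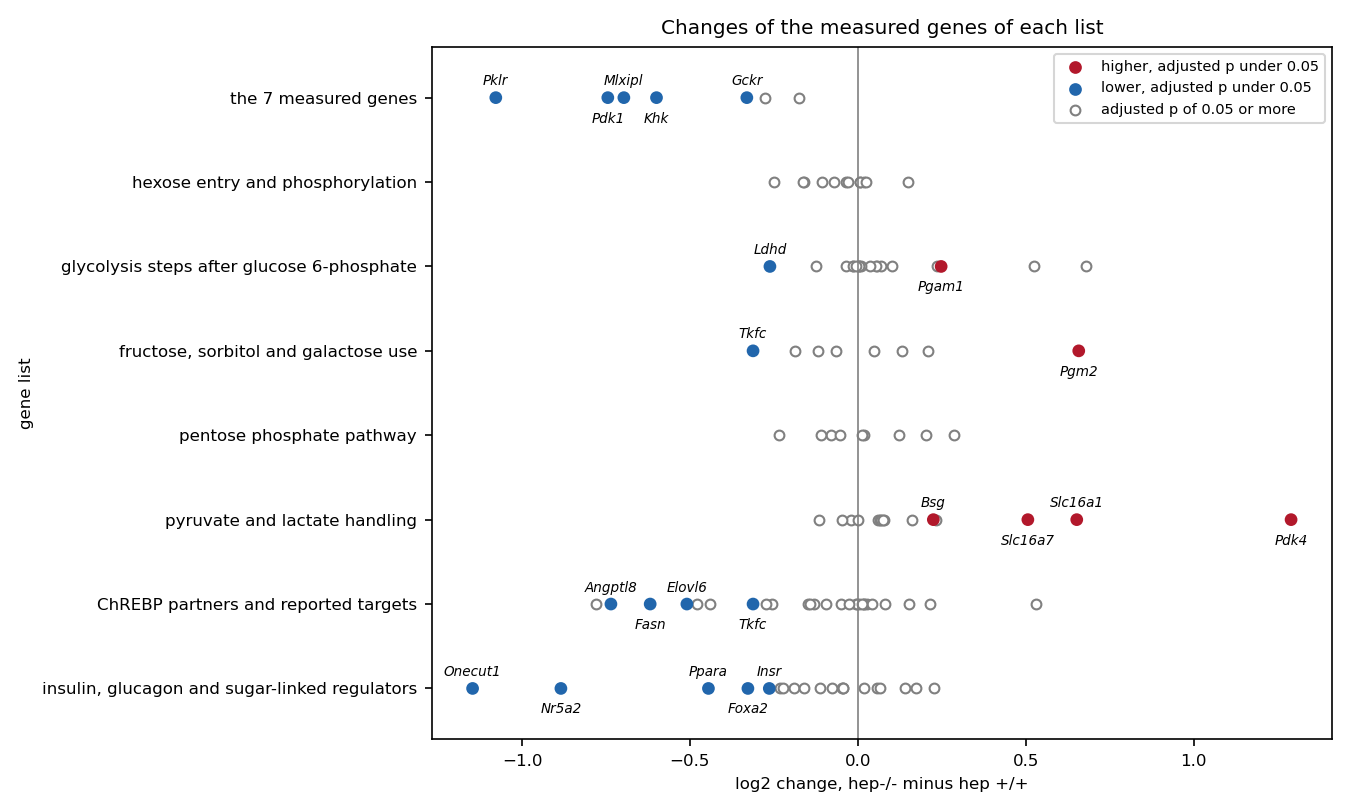
Change in log2 units (hep-/- minus hep +/+, horizontal axis) of every measured gene of each list (rows); red and blue points have an adjusted p under 0.05 and are named, open points do not. In the top row 5 of 7 points are blue, in the row of pyruvate and lactate handling the 4 called points are red, and the rows of hexose entry and of the pentose phosphate pathway hold open points only.

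Among regulators of sugar use in the liver 5 of 20 measured genes fell, against 3.2% of all genes. In this list 0 rose in limma (7 lower and 1 higher at an unadjusted p under 0.05, median -0.09). Without the 3 arrays with adipocyte markers 2 were called lower and 1 higher, with Ppara at -0.45 ± 0.13 (limma adjusted p = 0.0582) and Foxa2 at -0.31 ± 0.11 (limma adjusted p = 0.129). Without the 5 arrays with adipocyte or muscle markers 1 was called lower, with Ppara at -0.44, Insr at -0.28 and Foxa2 at -0.23. The count was 3 without liver 2 or 5 of hep-/- and without liver 4, 5 or 7 of hep +/+. Nr5a2, the targeted gene, is one of the 5. The others were Ppara, the fatty acid receptor (-0.44 ± 0.11, limma adjusted p = 0.0116), the insulin receptor Insr (-0.26 ± 0.07, limma adjusted p = 0.0199), Foxa2 (-0.33 ± 0.09, limma adjusted p = 0.0278) and the hepatic factor Onecut1 (-1.15 ± 0.32, limma adjusted p = 0.0278), the last of which is named outside the rule, after its values were seen. Onecut1 spread widely, at 7.00 ± 0.91 in hep-/- and 8.14 ± 0.58 in hep +/+ livers (SD, n = 8 each). Onecut1 was not called without the arrays with adipocyte markers, without those with muscle markers, without both, or without livers 3 and 8 of hep-/-. Nor was Onecut1 called without any of the single livers at which the count was 3. Srebf1, the insulin-driven factor that acts beside ChREBP on lipogenic genes, differed by -0.23 ± 0.22 (limma adjusted p = 0.723). Its value was 7.06 in liver 3 of hep-/- and 8.55 or more in the other hep-/- livers, and without liver 3 the difference was 0.001 ± 0.10 (limma adjusted p = 0.999). Nr1h3, which encodes the oxysterol receptor LXR alpha, averaged 8.96 ± 0.15 in hep-/- and 9.01 ± 0.23 in hep +/+ livers (SD, n = 8 each) and was not called (limma adjusted p = 0.919), with a difference whose sign turned in 2 of 28 alternatives.

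Mlxipl is also expressed in adipose tissue, so markers of other cells were set beside the 7 genes. The 9 measured adipocyte markers summed to 368 to 1229 in hep-/- and 299 to 1296 in hep +/+ livers, and 1 of them, the lipid droplet gene Plin4, was called (higher, 1.07 ± 0.11). The 5 skeletal muscle markers summed to 170 to 2657 in hep-/- and 193 to 3893 in hep +/+ livers, and none was called in limma (0 at an unadjusted p under 0.05). Of 9 stellate cell and fibroblast markers 4 were called higher and 1 lower, against 5.49% and 3.2% of all genes. These markers summed to 2560 to 3674 in hep-/- and 2190 to 3111 in hep +/+ livers, and their part in the results was not tested. Among markers of endothelial cells, macrophages, lymphocytes, neutrophils, bile ducts, red cells and acinar pancreas, Epcam of bile ducts was called higher and Alas2 of red cells lower, and no other. Without the 3 arrays with adipocyte markers the same 5 of the 7 genes were called lower, with -0.69 for Mlxipl, -0.97 for Pklr, -0.64 for Khk, -0.36 for Gckr and -0.76 for Pdk1. Those 5 were also called without the 2 muscle arrays, without all 5 of these arrays and without livers 3 and 8 of hep-/-.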

How the data were processed

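RNA from 16 mouse livers, 8 of each genotype, was measured on 1 array per liver from 100 ng of total RNA, per the labels' protocols. The deposited table holds linear intensities per probe set. The submitters' processing notes name Affymetrix Expression Console without a version. How the authors corrected background and normalized is not given there, and changes are therefore relative to the rest of each array. Array medians lay between 38.9 and 43.5. The number of arrays limits the precision.

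Intensities were taken to log2 with no pseudocount. Of 35556 probe sets, 21456 had 1 annotated gene, 2376 several and 11724 were not listed. For 1343 genes with several probe sets that of highest mean was kept, which gave 19237 genes, with no filter on dim ones. Genotype was the single term of a linear model in limma 3.58.1 (lmFit, eBayes; R 4.3.3), 2-sided, with Benjamini-Hochberg adjustment over all genes. The fit was tested on simulated data. Promoter sequences are from RefSeq (GRCm38.p6), matched by symbol for all 7 genes.

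The members, gene lists and tests were chosen with earlier results of these data known. Named were the 7 genes, Nr5a2, per list up to 4 called genes of smallest p, or 2 where none was called, the fixed counterparts Tkfc, Pdk4, Pkm, Mlx, Txnip, Srebf1 and Nr1h3 where measured, and the 5 genes most like Mlxipl. Genes named beside these are named for completeness of a list or a family. Alternatives were a replicate block, quantile normalization, median centring, filters at the 25th and 50th percentiles, the mean of probe sets, robust variances with an intensity trend, weights per array and leaving out each array. Correlations with Mlxipl were tested over the 6 other measured genes in both genotypes. Leaving out arrays with adipocyte or muscle markers, or livers 3 and 8 of hep-/-, was added after seeing the data. The labels call the livers biological replicates.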

Additional observations from a re-analysis of the deposited data

Results flagged for a closer look

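In each group of 8 livers, a highest or lowest value was singled out where its gap to the nearest other liver took a larger part of the group's range than Dixon's 95% critical value, a criterion that chance meets in about 1 in 20 groups. Among 72 groups (36 named genes in 2 genotypes) 11 values met it, 3 of them in the 14 groups of the 7 genes. Liver 8 of hep-/- was lowest in Khk (8.67, next 9.57) and in Pdk1 (6.13, next 6.74). Liver 3 of hep-/- was lowest in Gckr (8.90, next 9.32).

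Among the other named genes, liver 3 of hep-/- was highest in Txnip (9.82) and Slc16a1 (9.74) and lowest in Srebf1 (7.06). Liver 8 of hep-/- was lowest in Slc16a7 (8.63) and highest in Bsg (10.07). Liver 4 of hep +/+, an array with skeletal muscle markers, was highest in Pkm (8.34) and Angptl8 (10.38). Liver 6 of hep +/+ was lowest in Cyb5r3 (11.27). Of the 11 values, 8 thus came from livers 3 and 8 of hep-/-, and without both livers the same 5 of the 7 genes were called lower.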

How the results depend on the processing

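Mlxipl, Pklr, Khk, Gckr and Pdk1 were called lower under all 28 alternatives of the fit, with limma adjusted p-values up to 0.0483 for Gckr (replicate block) and 0.0352 for Khk (without the 5 adipocyte and muscle arrays). Pfkl was called under 3 of 28 and Slc2a2 under none (limma adjusted p of 0.245 to 0.946). Leaving out 1 array moved the number of all genes called between 1424 and 1821, against 1673 with all arrays. Without the 5 adipocyte and muscle arrays, a choice made after seeing the data, 893 genes were called, 586 higher and 307 lower, with 11 arrays in the fit. The labels do not say that livers are paired by replicate number. Same-numbered livers correlated between -0.26 and 0.23 in their deviations, above 0.1 in 2 of 8 pairs. Closest to their own number were 0 of 8 hep-/- livers. With 8 pairs these values do not settle whether the numbers pair livers. With the replicate block 1524 genes were called, and of the named genes only Bsg (adjusted p = 0.058) and Angptl8 (adjusted p = 0.0807) lost their call.

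List counts were small and moved more. Genes called lower ranged from 0 to 5 in the list of ChREBP partners and targets and from 1 to 6 among regulators, and those called higher from 2 to 6 in pyruvate and lactate handling. Of 28 alternatives Fasn was called under 12, Angptl8 under 10, Elovl6 under 17, Foxa2 under 18, Bsg under 21, Pgam1 under 24 and Ldhd, Tkfc, Ppara and Insr under 26 each. Slc2a8 and Xylb were called under 2 and Pdzk1ip1 under 1. The calls of Onecut1, named outside the rule, were not counted over the 28. Slc16a7 was called under 27, and Pdk4, Pgm2, Slc16a1 and Arhgef16 under all 28. Other probe sets of the 7 genes were not run, since each gene has 1.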

Other observations

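The hep-/- livers differed in how much Nr5a2 signal they had left, and this was set beside the 7 genes after their values were seen. Livers 8, 4 and 5 of hep-/- had the most Nr5a2, at 8.25, 8.15 and 8.06, and their Pklr was 9.57, 9.88 and 9.94. The other hep-/- livers had Nr5a2 of 7.86 or less and Pklr of 9.15 or less. Over the 8 hep-/- livers Pearson's r between Nr5a2 and Pklr was 0.74 (exact permutation p = 0.0479, adjusted p = 0.336 over 7 genes) and Spearman's rho was 0.55 (exact permutation p = 0.171, adjusted p = 0.399). Without livers 2 and 8, the farthest in Nr5a2, r was 0.79 (exact permutation p = 0.0792). For Mlxipl r was 0.53 (exact permutation p = 0.175) and rho 0.64 (exact permutation p = 0.0962), and without livers 2 and 8 r was 0.24 (exact permutation p = 0.699). For Gckr r was 0.33, for Pdk1 -0.08, for Pfkl -0.14, for Khk -0.20 and for Slc2a2 -0.41 (exact permutation p of 0.312 or more). None of the 7 relations passed after adjustment.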
